A study of Mus musculus with 12 samples.

Results

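Inguinal white fat of mice that lack the mitochondrial calcium uniporter gene Mcu in adipose tissue was compared with inguinal white fat of control mice. The comparison used the 6 white fat libraries of the 12 in the study, 3 from controls and 3 from knockouts, and the brown fat libraries were left out. All 15915 genes that passed a filter on low counts, of 52550 gene IDs in the count table, were tested. The controls were Mcu fl/fl mice, in which the Mcu gene carries recombination sites but is intact. The knockouts, called AKO, were Mcu fl/fl mice with the gene removed in fat. The series' text describes CRISPR/Cas9 as the technology behind the animals and a high-fat diet for both genotypes, so every library came from a fat-fed mouse. The sources used here do not give the Cre driver, the exon between the recombination sites, or the age and sex of the mice. No source states that each numbered library came from its own animal, so a p-value reflects only how far these libraries spread.

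Mcu forms the pore through which calcium enters the mitochondrial matrix, and its activity is set by partner subunits. White adipocytes store triglyceride, take up fatty acids, and secrete hormones such as leptin and adiponectin. In obesity the tissue around them gains collagen-rich matrix and macrophages that take up lipid. The inguinal depot lies under the skin next to muscle and encloses a lymph node, so dissected tissue can carry transcripts of both. In bulk tissue, fewer cells of a type and less RNA per cell cannot be told apart.

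The adipocyte label held in every library. All 18 genes of an adipocyte list, among them Adipoq, Plin1 and Pparg, were detected in each library, and their summed level ran from 42130 to 49020 CPM in controls and from 34640 to 43300 in AKO. CPM are counts brought to a common library size with edgeR's TMM factors. Total counts ran from 17496657 to 18967159 per library. Skeletal muscle genes (38 in the list) took 1.85, 0.494 and 0.0332% of counts in controls 1, 2 and 3, and 0.0324, 3.30 and 0.0451% in AKO 1, 2 and 3 (exact permutation p = 0.9, two-sided). Control 1 and AKO 2 were thus rich in muscle transcripts, with 1 such library in each group, and control 2 held an intermediate share. The muscle enzyme Ckm had 0 counts in control 3 and 1399 CPM in AKO 2.

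Lymph node transcripts were divided differently. The 79 genes of the B cell, T and NK cell, plasma cell and lymph node stroma lists took 0.295, 0.493 and 0.373% of counts in controls and 0.634, 0.503 and 0.844% in AKO, where every AKO library lay above every control (exact permutation p = 0.1, two-sided, the smallest that 3 against 3 libraries allow). Taken singly, only the plasma cell list separated in this way. AKO 2 lay slightly below control 2 for B cells (0.174 and 0.186%), T and NK cells (0.06505 and 0.06558%) and node stroma (0.192 and 0.194%). The summed shares do not measure node tissue alone. The node stroma list summed to 2245 CPM in control 3 and 1915 CPM in control 2, although Glycam1 and Chst4 had 0 counts in control 3. The B cell list summed to 977 CPM in control 1, where 6 of its 20 members reached 1 CPM. The B cell markers showed which libraries held node tissue: all 20 reached at least 1 CPM in control 2 and in each AKO library, against 6 in control 1 and 5 in control 3. Ms4a1, Tnfrsf13c and Fcmr had 0 counts in control 1, and Glycam1 and Chst4, made by high endothelial venules, had 0 in controls 1 and 3. Control 2 was therefore the only control with a lymph node signal like that of the AKO libraries, and results below are given also against control 2 alone. Of 23 epidermal and mammary genes, 3 to 8 reached 1 CPM in a library, and Krt5, Krt15, Csn3 and Wap had 0 counts in all 6 libraries.

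**Figure D1:**
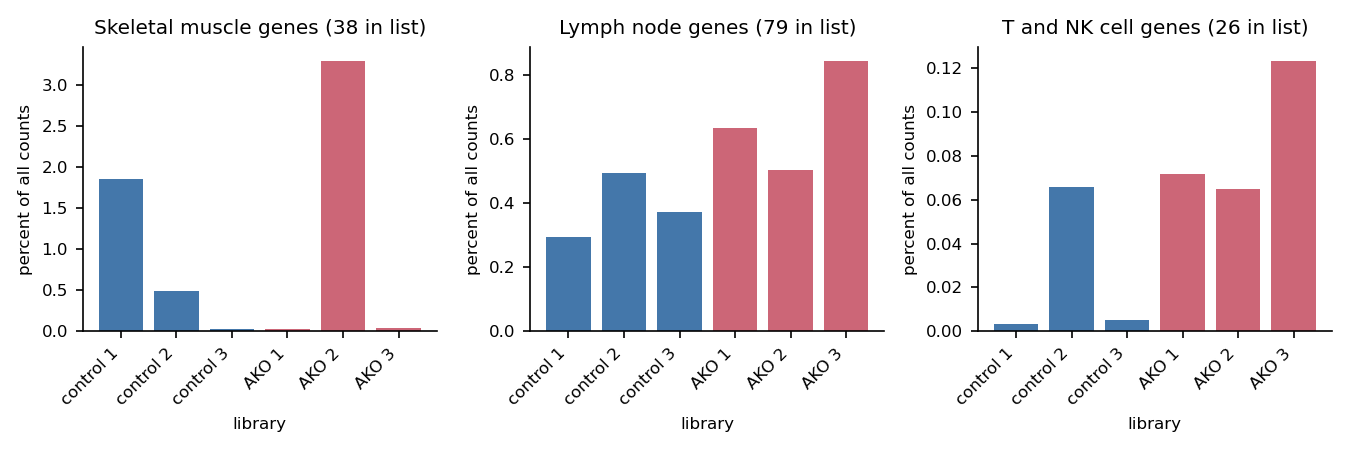
Percent of all counts in each white fat library that fell on skeletal muscle genes, on lymph node genes (B cell, T and NK cell, plasma cell and node stroma lists together) and on T and NK cell genes alone, with controls in blue and AKO in red. Muscle genes reach 1.85% in control 1 and 3.30% in AKO 2, and T and NK cell genes are low in controls 1 and 3 and higher in control 2 and the AKO libraries.

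Mcu itself spans 59446984 to 59616692 of chromosome 10 (mm10), on the minus strand. It measured 21.01, 21.9 and 22.3 CPM in the controls and 11.8, 14.6 and 12.4 CPM in the AKO libraries. Each AKO library lay below each control, and the AKO mean was 59.5% of the control mean. The log2 fold change was −0.75 (SE 0.126, 95% interval −1.05 to −0.45), and Mcu missed the 0.05 threshold in edgeR's quasi-likelihood test (adjusted p = 0.0799) and passed in DESeq2 (adjusted p = 0.000286). It also passed in edgeR when control 2 was left out (adjusted p = 0.037), but not when any other single library was left out (adjusted p 0.13 to 0.299). Reads from exons outside the deleted part, and from cells other than adipocytes, are counted too, so the level does not measure how much of the gene was deleted. The highest AKO level was in the muscle-rich AKO 2. Without the muscle-rich libraries, control 1 and AKO 2, the log2 fold change of Mcu was −0.88. The other 6 genes of the uniporter list also had negative fold changes, and none passed the test. Mcub, a pore subunit that lowers uniporter activity, measured 9.19, 11.9 and 7.59 CPM in controls and 5.33, 5.13 and 6.92 in AKO (log2 −0.72, SE 0.23). Mcur1, a uniporter regulator, measured −0.29 on the log2 scale.

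By edgeR's test 3 genes passed at an adjusted p under 0.05, 0.0189% of those tested, all of them higher in AKO. Zfp949, a zinc finger protein gene, rose 3.79-fold, and its edgeR adjusted p reached 0.262 when a single library was left out, staying under 0.05 only without control 2. The others, Gm8210 and Gm11868, are pseudogenes with near-identical gene copies elsewhere, so their reads are uncertain. They were named after their values were seen, to complete the count. The next smallest adjusted p was 0.0571, and 443 further genes lay between 0.05 and 0.1. With those, 163 genes were higher (1.02% of all tested) and 283 lower (1.78%), with a median absolute log2 fold change of 1.02.

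At an unadjusted p under 0.05, 1683 genes (10.6%) had higher levels in AKO and 1914 (12%) had lower ones. DESeq2 called 700 higher (4.40%) and 979 lower (6.15%) at its adjusted threshold. All 3 AKO libraries lay above all 3 controls for 15.2% of genes, and below them for 15.4%. Over all genes tested, 8031 fold changes were positive and 7884 negative. Against control 2 alone, all AKO libraries lay above it for 29.7% of genes and below it for 28.1%. In the fit of all libraries and in each of 6 fits that left out 1 library, 612 genes were higher (3.85%) and 993 lower (6.24%) at unadjusted p under 0.05. These values are the background for the counts given below. The list members counted below do not pass the adjusted threshold, and what follows describes levels and order.

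The number of genes depended on control 2. Without it, edgeR called 1066 genes higher and 583 lower at an adjusted p under 0.05, and without any other single library it called 1 gene. When control 1 and AKO 2, the muscle-rich libraries, were left out together, no gene passed, with 1033 higher and 1518 lower before adjustment. With the mean level of the B cell markers as a covariate, no gene passed and 553 were higher and 771 lower without adjustment. Of the 1683 genes higher without adjustment, 809 kept p under 0.05 without the muscle-rich libraries and 287 with the B cell covariate. Of the 1914 lower genes, 1232 and 530 did so. The part that lymph node tissue had in these counts was not tested.

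**Figure D2:**
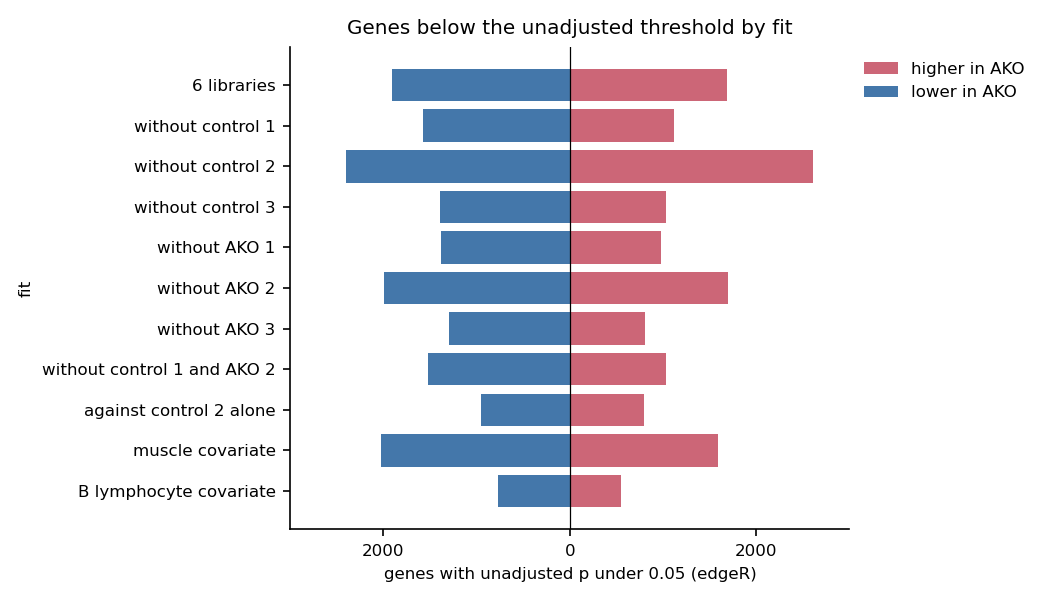
Number of genes with an unadjusted p under 0.05 in edgeR's test, higher (red) or lower (blue) in AKO white fat, for the fit of all 6 libraries and for 10 other fits. The fit without control 2 gives the most genes (2605 higher, 2403 lower) and the fit with the B lymphocyte covariate the fewest (553 and 771).

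Beyond the 3 called genes, the 12 protein-coding genes in each direction with the smallest p were taken among those with at least 5 CPM, separate groups and an unadjusted p under 0.05 after leaving out any 1 library. They were chosen for these properties, so their values are a description. Zfp949, on chromosome 9 (88548020 to 88571061), headed the higher genes with 13.2, 10.9 and 13.3 CPM in controls and 51.4, 40.1 and 50.1 in AKO (log2 1.92, SE 0.146, edgeR adjusted p = 0.0403). Ier5, an immediate early gene that promotes activity of the heat shock factor, measured 40.7, 40.8 and 37.6 CPM in controls and 116, 105 and 147 in AKO. Pmaip1, which encodes the pro-apoptotic protein Noxa, measured 2.22, 2.96 and 1.37 CPM against 14.6, 13.6 and 15.2. In all 3 genes the AKO libraries stood well apart from the controls, with control 2 no nearer to them than the other controls for Zfp949.

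Vcam1, an adhesion molecule for leukocytes, measured 29.3, 32.0 and 38.6 CPM in controls and 70.7, 74.8 and 80.2 in AKO. The phosphatase gene Ptp4a3 measured 94.1, 119 and 111 CPM against 274, 300 and 420. Cad, the multifunctional enzyme that starts pyrimidine synthesis, measured 42.2, 37.2 and 35.7 CPM against 80.2, 73.1 and 104. For these genes the lowest AKO library was above the highest control by more than the spread among the controls. Eif4a2, an RNA helicase of translation initiation, had a log2 fold change of 1.04 (SE 0.134). It lies on chromosome 16 (23107444 to 23114136), near Adipoq (23146536 to 23158028). The Cre driver is not given, and whether this position bears on the level of Eif4a2 was not tested. Etfbkmt, a methyltransferase that acts on the electron transfer flavoprotein, had a log2 fold change of 1.06 (SE 0.134). Fam129c, a gene expressed in B cells, measured 3.57, 5.47 and 3.11 CPM in controls and 18.5, 14.5 and 20.6 in AKO. Irf2, a transcription factor of the interferon system, measured 0.64 (SE 0.0899) and the transglutaminase Tgm1 2.27 (SE 0.318). The transcription factor Tbx1 measured 1.54 (SE 0.216). It is a marker used for beige adipocytes and is also a member of the lymphatic endothelium list. The edgeR adjusted p of the 12 ran from 0.0403 to 0.0706.

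The lower genes were led by a lectin and a lipase. Lgals3, the lectin galectin-3 of macrophages, lies on chromosome 14 (47367751 to 47386160). It measured 408, 363 and 324 CPM in controls and 148, 154 and 135 in AKO (log2 −1.32, SE 0.128). Lipa, the lysosomal acid lipase on chromosome 19 (34492318 to 34527474), measured 106, 107 and 104 CPM against 62.2, 57.1 and 54.7. In both, the AKO libraries lay close together and far below the controls. The coat protein of lipid droplets Plin2 measured 836, 771 and 927 CPM in controls and 345, 382 and 378 in AKO. Trem2, a lipid receptor of macrophages, measured 29.3, 25.4 and 17.9 CPM against 3.87, 6.23 and 4.27, so that the AKO mean was 19.8% of the control mean.

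The other 8 lower genes were of mixed function. Inhbb, the subunit of activin B that adipocytes secrete, measured 123, 126 and 128 CPM in controls and 44.9, 51.9 and 65.4 in AKO. The ubiquitin-like modifier Ubd measured 107, 146 and 173 CPM against 32.3, 41.7 and 27.5. In neither gene did the groups come near each other. Steap3, a ferrireductase of iron uptake, had a log2 fold change of −0.94 (SE 0.109), the keratin Krt79 of −1.46 (SE 0.152), and the endocytic scaffold Itsn1 of −0.80 (SE 0.091). The dipeptidase Dpep2 measured −1.66 (SE 0.191), the potassium channel Kcnj14 −1.90 (SE 0.23) and the ciliary gene Hydin −1.93 (SE 0.239). The exons of Dpep2 share 150 bases with Dus2 on the other strand, which had more counts, so its reads are uncertain. The edgeR adjusted p of the 12 ran from 0.0634 to 0.067.

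All 24 genes kept their direction against control 2 alone. They kept it, with an unadjusted p under 0.05, without the muscle-rich libraries, with the B cell covariate and with the muscle covariate. The genes were chosen for separate groups, which already sets their direction in fits that only leave out libraries. They were also chosen for a small p whichever library was left out. Their stability in these fits is therefore no separate test of muscle or lymph node content. For Fam129c the log2 fold change was 2.14 over all libraries, 1.70 against control 2 alone and 1.55 with the covariate. For Trem2 it was −2.34, −2.41 and −2.33.

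**Figure D3:**
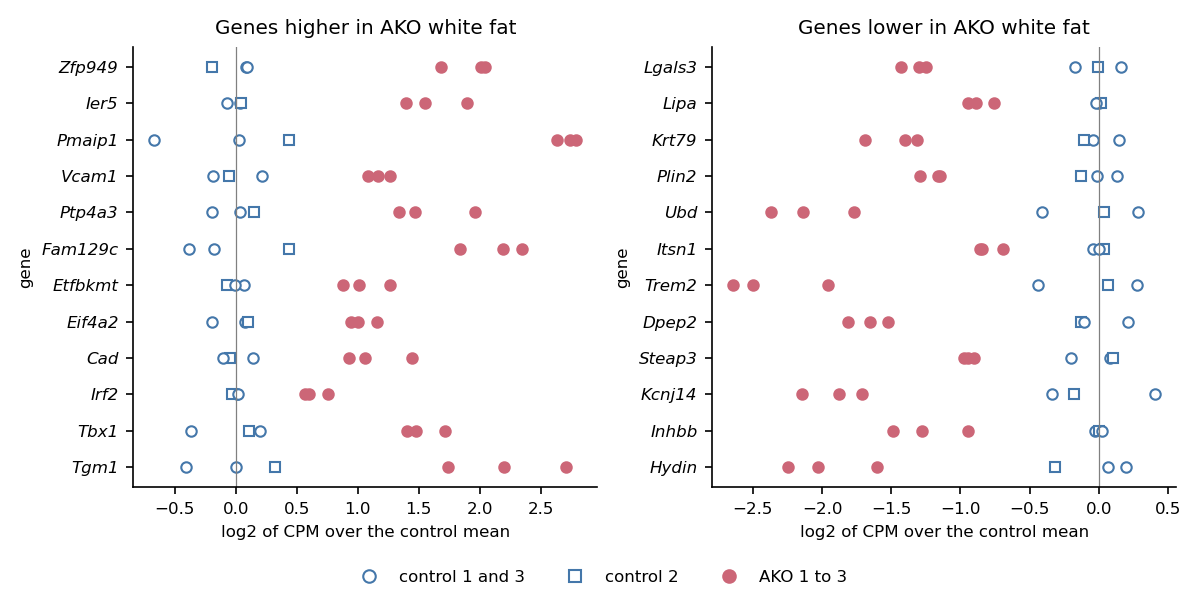
Level of the 12 higher and 12 lower genes in each library, as log2 of its CPM over the mean of the controls, with controls open and AKO filled and control 2 as a square. AKO libraries lie on one side of all controls for each gene, as the choice of genes requires, and control 2 (square) can be read against each AKO library.

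Genes of the extracellular matrix were lower in AKO white fat across several families. Collagens took 2.27, 1.86 and 1.96% of counts in controls and 1.30, 1.24 and 1.06% in AKO, with no overlap (exact permutation p = 0.1, two-sided). Of 19 collagen genes tested, 18 had negative fold changes, 15 lay below all controls in every AKO library (15.4% of all genes did), and the median log2 fold change was −0.92, beside 0.005 over all genes. None passed at an adjusted p under 0.05 in edgeR, 5 lower genes had an adjusted p under 0.1, and DESeq2 called 16 lower. Col16a1, a collagen associated with fibrils, measured 66.6, 74.3 and 110 CPM in controls and 34.9, 27.3 and 22.6 in AKO. Col6a3, a chain of the microfibrillar type VI collagen that is abundant in fat, measured 1018, 762 and 852 CPM against 428, 486 and 363. The fibrillar chain Col5a1 measured 654, 534 and 616 CPM against 348, 336 and 251. All 3 showed every AKO library well below every control.

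The abundant fibrillar chains varied more among controls. Col1a1 measured 2912, 1868 and 1459 CPM in controls and 1159, 1147 and 847 in AKO, and Col1a2 overlapped between the groups, since AKO 2 (1087 CPM) lay above control 3 (1076 CPM). Col3a1 measured 5504, 3560 and 2766 CPM in controls and 2014, 2305 and 1628 in AKO. For these chains control 1 was the highest library. Col6a5 alone measured higher in AKO (log2 1.21, SE 0.239), at 4.38 to 5.26 CPM against 1.55 to 2.45, and was named after its values were seen.

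Glycoproteins and crosslinking enzymes of the matrix had a similar order. Of 29 tested, 28 were negative and 21 lay below all controls (15.4% of all genes did), with a median of −0.70. Serpinh1, the collagen chaperone HSP47, measured 798, 673 and 928 CPM in controls and 369, 439 and 311 in AKO. Bmp1, the protease that trims procollagen, measured 154, 143 and 140 CPM against 94.0, 75.5 and 72.4, and Loxl1, a crosslinker of elastin and collagen, 146, 160 and 131 against 94.2, 65.1 and 79.3. In these genes every AKO library lay below every control. The proteoglycan lumican (Lum) measured −0.91 (SE 0.174), fibronectin (Fn1) −1.06 (SE 0.254) and the collagen prolyl hydroxylase P4ha1 −0.44 (SE 0.0946). Fbn1 and Eln, which build elastic fibres, overlapped between groups at −0.78 and −0.31. Of 18 matrix proteases and inhibitors, 8 lay below all controls, beside 15.4% of all genes, with a median of −0.71. Mmp12, the macrophage elastase, measured 63.0, 40.5 and 22.9 CPM in controls and 4.93, 7.69 and 2.71 in AKO, while Mmp2, Mmp3 and Mmp9 measured −0.60, −0.59 and 0.04.

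Macrophage genes were described with 2 lists. Of 18 genes of lipid-associated macrophages, the cells that gather around dying adipocytes in obese fat, 15 lay below all controls in every AKO library. Of all genes 15.4% did so, and the median of the list was −1.0. Adipocytes also express some of its members, among them Plin2, Lpl and Cd36. Of its members, 8 had an edgeR adjusted p under 0.1 and DESeq2 called 11 lower. Fabp5, a fatty acid binding protein, measured 287, 273 and 340 CPM in controls and 147, 170 and 153 in AKO. The tetraspanin Cd9 measured −0.41 (SE 0.126), and Spp1, the secreted protein osteopontin, −1.12 (SE 0.649) with groups that overlapped.

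Of the 20 genes of a general macrophage list, 17 were negative and 10 lay below all controls (15.4% of all genes did), with a median of −0.46. The difference between the lists was not tested. Adgre1, the F4/80 antigen, measured 65.3, 52.8 and 41.6 CPM in controls and 22.7, 24.1 and 16.8 in AKO. Cd68, a lysosomal membrane protein of macrophages, measured 129, 108 and 76.8 CPM against 56.9, 50.8 and 64.0. Both separated, and control 3 was the control nearest to AKO. The mannose receptor Mrc1 measured −1.19 (SE 0.253), the protease Lgmn −0.82 (SE 0.127), the Fc receptor chain Fcer1g −0.41 (SE 0.0966) and Csf1r, the receptor for the macrophage growth factor, −0.36 (SE 0.143). The summed share of this list was 0.185 to 0.230% in controls and 0.151 to 0.190% in AKO, ranges that overlap.

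Lysosomal genes, active in macrophages and other cells, lay lower as well. Of 29, 18 lay below all controls (15.4% of all genes did), with a median of −0.36. Atp6v0d2, a proton pump subunit found in macrophages and osteoclasts, measured 16.1, 15.2 and 9.62 CPM in controls and 2.46, 3.20 and 1.51 in AKO. The cathepsins Ctsb and Ctsd measured −0.65 (SE 0.176) and −0.91 (SE 0.204), the pump subunits Atp6v0a1 and Atp6v1a −0.72 and −0.55, and the carboxypeptidase Ctsa −0.16. Secreted inflammatory genes did not move together: of 19 tested, 5 lay below all controls and 2 above, beside 15.4% and 15.2% of all genes. Their median was −0.47, and it was −0.28 without control 3, −0.27 without AKO 2 and −0.15 against control 2 alone. Il1rn, the antagonist of the interleukin 1 receptor, measured 9.30, 8.65 and 4.48 CPM in controls and 0.956, 1.40 and 1.46 in AKO. The acute phase genes Hp and Saa3 measured −1.34 (SE 0.316) and −2.21 (SE 0.621), and the chemokine Ccl9 −1.07 (SE 0.303). In the other direction, Tnf measured 0.644, 3.18 and 1.20 CPM in controls and 6.59, 4.02 and 7.03 in AKO, with its highest control in control 2, the control that held lymphocyte transcripts. Il1b stayed at or below 1.15 CPM in every library.

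Enzymes of cholesterol synthesis were lower in AKO as well. The list took 0.130, 0.176 and 0.159% of counts in controls and 0.0913, 0.0962 and 0.0910% in AKO (exact permutation p = 0.1, two-sided). Of 25 genes tested, 21 were negative and 17 lay below all controls (15.4% of all genes did), with a median of −0.57. None passed in edgeR at an adjusted p under 0.05, 6 had an adjusted p under 0.1, and DESeq2 called 12 lower. Insig1, which holds the sterol-sensing complex in the endoplasmic reticulum and is itself a target of the sterol-regulated factor SREBP, measured 303, 486 and 339 CPM in controls and 99.7, 139 and 97.4 in AKO (log2 −1.75, SE 0.235). Hmgcs1, the synthase that makes HMG-CoA, measured 186, 315 and 179 CPM against 69.6, 115 and 91.2. Mvk, mevalonate kinase, measured 53.2, 47.6 and 56.4 CPM against 35.7, 36.5 and 33.5. Insig1 and Hmgcs1 were highest in control 2, and every AKO library lay below every control for all 3 genes.

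The sterol enzymes Sc5d, Dhcr7 and Nsdhl measured −0.84 (SE 0.159), −1.12 (SE 0.229) and −1.11 (SE 0.229), Nsdhl being chosen after its values were seen.

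Promoters of Insig1, Hmgcs1 and Mvk are printed because these genes carry the cholesterol result, with the letters CCAAT (or ATTGG on the other strand), bound by the factor NF-Y that acts with SREBP, and TCACNCCAC on either strand, a form of the sterol regulatory element, in capitals. The sequences are from RefSeq, build GRCm38.p6, plus strand, from 250 bases before to 50 after the start: chr5:28071162-28071461 for Insig1, chr13:119690101-119690400 for Hmgcs1 and chr5:114444019-114444318 for Mvk.
Insig1: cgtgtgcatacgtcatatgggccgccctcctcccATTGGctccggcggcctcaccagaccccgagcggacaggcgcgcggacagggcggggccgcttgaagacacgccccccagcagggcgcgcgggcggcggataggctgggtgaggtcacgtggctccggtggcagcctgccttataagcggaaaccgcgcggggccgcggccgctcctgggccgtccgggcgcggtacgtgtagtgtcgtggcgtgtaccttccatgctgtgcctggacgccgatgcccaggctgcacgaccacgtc
Hmgcs1: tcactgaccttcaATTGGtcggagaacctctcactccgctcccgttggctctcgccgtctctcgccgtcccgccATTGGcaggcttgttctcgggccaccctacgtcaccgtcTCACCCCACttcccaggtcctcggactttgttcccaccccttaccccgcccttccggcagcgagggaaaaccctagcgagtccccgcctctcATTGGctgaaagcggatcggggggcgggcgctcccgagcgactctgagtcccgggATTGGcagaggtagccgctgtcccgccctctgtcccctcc
Mvk: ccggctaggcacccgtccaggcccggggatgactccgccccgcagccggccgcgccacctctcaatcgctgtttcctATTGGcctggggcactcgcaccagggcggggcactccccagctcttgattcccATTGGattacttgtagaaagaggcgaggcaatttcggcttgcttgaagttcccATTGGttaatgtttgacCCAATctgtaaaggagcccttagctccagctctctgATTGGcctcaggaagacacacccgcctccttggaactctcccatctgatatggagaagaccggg
Of the 25 genes tested, 18 had a promoter in the table, and 17 of these held CCAAT, against 41.1% of the 27025 genes of the table. The longer motif was found in Hmgcs1 among the 18, and in 1.44% of all genes. The 2 motifs share no letters in these windows. These matches are a description of the letters, and no binding was measured.

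**Figure D4:**
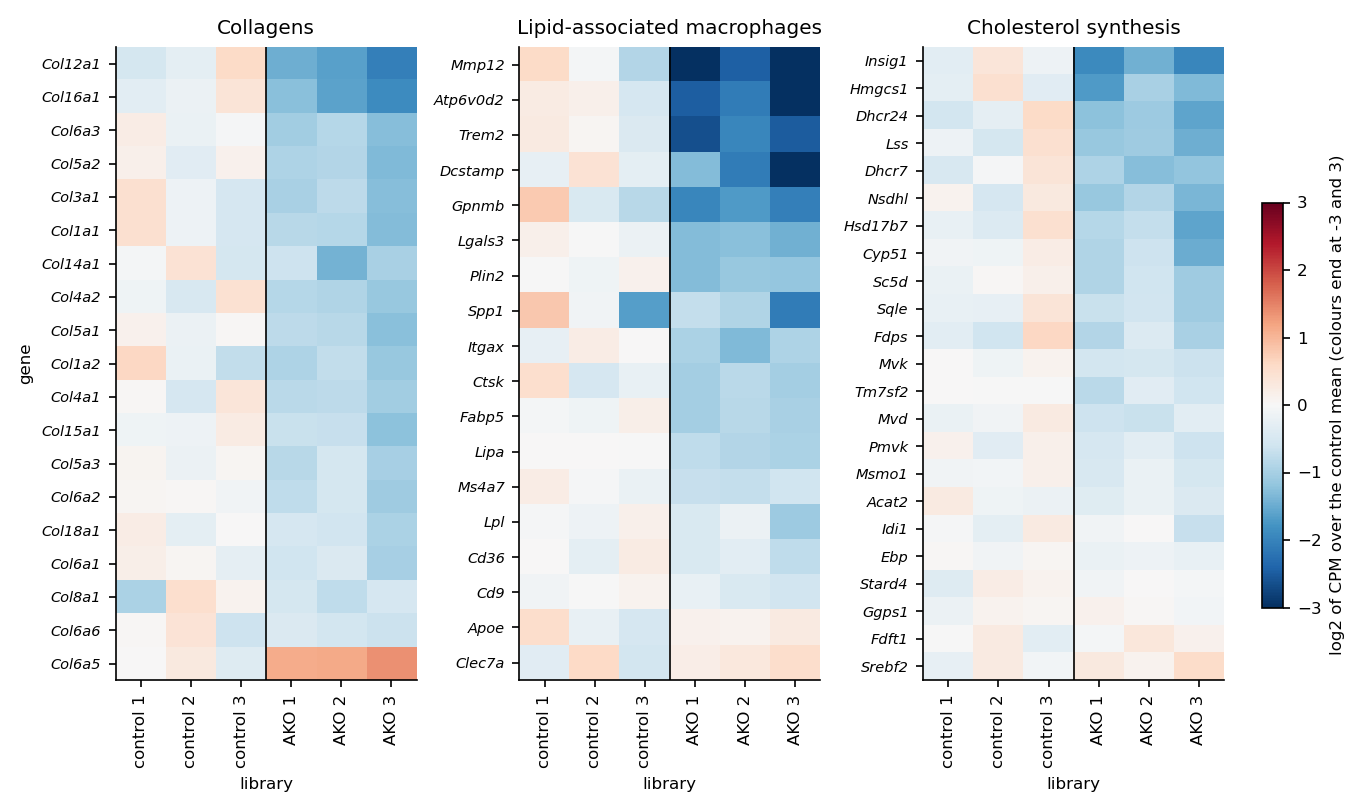
Members of the collagen, lipid-associated macrophage and cholesterol synthesis lists in each library, coloured by log2 of CPM over the control mean (blue lower, red higher), sorted by fold change, with some cholesterol genes not shown. AKO columns are blue for most members of each list, and Col6a5 is the collagen at the other end.

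Genes of lipid storage were mixed. Among 18 genes of fatty acid uptake, 8 lay below all controls in every AKO library (15.4% of all genes did), and the list's median was −0.43. The fatty acid transporter Slc27a4 measured 68.3, 63.8 and 77.5 CPM in controls and 49.1, 52.6 and 47.9 in AKO. The caveola proteins Cavin1 and Cav1 measured −0.67 (SE 0.165) and −0.52 (SE 0.2), and the lipoprotein receptor Vldlr −0.82 (SE 0.273). The scavenger receptor Cd36 and lipoprotein lipase Lpl measured −0.50 (SE 0.209) and −0.52 (SE 0.274), and the binding protein Fabp4 −0.21 (SE 0.185). Their summed share of counts was 3.49 to 3.73% in controls and 2.74 to 3.24% in AKO, which did not overlap.

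Triglyceride synthesis genes held large single differences around a small median of −0.19. Agpat2, the acyltransferase that makes phosphatidic acid, measured 593, 719 and 564 CPM in controls and 225, 294 and 271 in AKO (log2 −1.25, SE 0.16). Dgat2, which adds the last fatty acid, measured 2760, 2916 and 3264 CPM against 1347, 1605 and 1219 (log2 −1.10, SE 0.172). In both genes even the highest AKO library lay far below the lowest control. Gpd1, which makes glycerol phosphate, measured −0.85 (SE 0.183) and seipin (Bscl2) −0.58 (SE 0.134). Gpat4, an acyltransferase of the first step, lay the other way with 264, 175 and 171 CPM in controls and 333, 330 and 304 in AKO, while Gpam and Gpat3 overlapped. Agpat2 shares 64 exon bases with Egfl7 on the other strand.

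Among droplet proteins, Plin2 stood apart. Plin3 measured −0.47 (SE 0.109), Hilpda, an inhibitor of lipolysis, −0.64 (SE 0.148), and Plin1, Plin4 and Cidec −0.25, −0.32 and −0.35. Of 18 lipogenesis genes, 5 lay below all controls and 2 above, beside 15.4% and 15.2% of all genes. The citrate carrier Slc25a1 measured 775, 610 and 860 CPM in controls and 318, 398 and 330 in AKO, and malic enzyme Me1 791, 630 and 931 against 292, 450 and 267. Both supply the synthesis of fatty acids and separated between groups. ATP citrate lyase (Acly) and the desaturase Scd2 measured −0.56 (SE 0.174) and −0.84 (SE 0.243), the carboxylase Acaca 0.06 (SE 0.188), and Acacb, its isoform at mitochondria, 0.82 (SE 0.333). The desaturase Fads1 measured 0.85 (SE 0.182).

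Of 19 genes of lipolysis and cAMP signalling, 6 lay below all controls in every AKO library and 2 above, beside 15.4% and 15.2% of all genes. The median was −0.16, and it was −0.08 without control 1 and −0.04 without AKO 3. Ptger3 and Adora1, receptors that lower cAMP, measured −1.58 (SE 0.256) and −0.52 (SE 0.135), and both were lower in each AKO library than in each control. The lipases Pnpla2 and Lipe overlapped between groups at 0.20 and −0.09, and the monoglyceride lipase Mgll measured −0.54 (SE 0.168). The catalytic subunit of protein kinase A, Prkaca, measured −0.54 (SE 0.147).

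Of 19 adipokine genes, 8 lay below all controls and 3 above, beside 15.4% and 15.2% of all genes, with a median of −0.40. Leptin (Lep) measured 3421, 2697 and 5312 CPM in controls and 2100, 2219 and 1208 in AKO, and adiponectin (Adipoq) 2997, 2614 and 2533 CPM against 1960, 2462 and 1758. Both separated by order, and neither passed in edgeR (adjusted p = 0.159 and 0.254), while DESeq2 called Lep (adjusted p = 0.0150) and not Adipoq (adjusted p = 0.106). Against control 2 alone the log2 fold change of Lep was −0.55, beside −1.05 over all libraries. Metrnl, a secreted protein, measured 53.1, 47.7 and 38.4 CPM in controls and 20.5, 22.1 and 23.8 in AKO. Angptl8, an insulin-induced regulator of lipoprotein lipase, measured −1.55 (SE 0.303), Igf1 −0.75 (SE 0.158), and the Wnt antagonist Sfrp5 −0.72 (SE 0.219), while resistin (Retn) overlapped at 0.10. The adipocyte list as a whole had a median of −0.22, with Pparg at −0.26 (SE 0.123), and took 4.19 to 4.42% of counts in controls and 3.80 to 4.20% in AKO.

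Genes of the respiratory chain did not differ by order in any list. None of 37 complex I genes and none of 39 genes of complexes II to V separated between groups or had an unadjusted p under 0.05 in edgeR, and DESeq2 called none. Their medians were −0.03 and −0.06, and ran from −0.15 to 0.07 and from −0.17 to 0.07 when 1 library was left out, lowest without AKO 2 and highest without control 1. The 12 transcripts of the mitochondrial genome had a median of −0.18 (−0.35 without AKO 2, −0.06 without control 1), with mt-Nd2 at 4192, 2690 and 3847 CPM in controls and 1970, 3280 and 1793 in AKO. There, the muscle-rich libraries control 1 and AKO 2 were the highest of their groups. Ucp1, the uncoupling protein, did not pass the count filter and had 5, 0 and 9 counts in controls and 255, 9 and 89 in AKO, so that AKO 1 held most of them and AKO 2 was at the level of control 3. Of 19 thermogenic genes tested, 4 lay below all controls and none above, beside 15.4% and 15.2% of all genes. The potassium channel Kcnk3, which limits thermogenesis, measured 60.3, 78.7 and 72.9 CPM in controls and 40.3, 41.4 and 38.0 in AKO. Cidea overlapped at 20.95, 8.09 and 6.45 CPM in controls and 22.4, 8.27 and 19.4 in AKO, and the coactivators Ppargc1a and Ppargc1b measured 0.28 (SE 0.32) and 0.25 (SE 0.334).

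Target genes of p53, the factor that answers to DNA damage, lay higher in AKO, and control 2 was the lowest library. The list took 0.198, 0.121 and 0.186% of counts in controls and 0.230, 0.229 and 0.228% in AKO. Of 18 genes, 6 lay above all controls (15.2% of all genes did) and 16 above control 2 (29.7%), with a median of 0.38 over all libraries, 1.05 against control 2 alone, 0.16 without it and 0.58 without control 3. Bbc3, which encodes the pro-apoptotic protein PUMA, measured 31.8, 18.6 and 41.3 CPM in controls and 90.9, 79.9 and 113 in AKO. Bax, an effector of apoptosis, measured 34.4, 17.1 and 34.2 CPM against 67.1, 51.2 and 81.3, and Trp53inp1, which enhances p53 activity, 69.6, 31.9 and 83.0 against 163, 168 and 142. These 3 separated against every control, with control 2 farthest away. Mdm2, which degrades p53, measured 0.62 (SE 0.202) and the nuclease Aen 1.05 (SE 0.324), while the cell cycle inhibitor Cdkn1a overlapped, with 561, 101 and 449 CPM in controls and 389, 431 and 283 in AKO.

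Immediate early genes did not share a direction, with 4 of 21 above and 3 below all controls, beside 15.2% and 15.4% of all genes. The nuclear receptor Nr4a3 measured 1.29, 2.57 and 1.91 CPM in controls and 7.80, 5.88 and 8.43 in AKO. Egr3 measured 1.93, 7.75 and 1.85 CPM against 23.5, 17.9 and 34.7. In Egr3 the control with lymph node transcripts was the highest control. Atf3 measured 14.2, 16.4 and 8.48 CPM in controls and 5.13, 4.43 and 3.75 in AKO, Klf4 −0.64 (SE 0.161) and Fos −1.03 (SE 0.309).

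Some lists changed with the choice of control library. Endothelial genes had a median of −0.44 over all libraries, −0.02 without control 3 and 0.05 against control 2 alone. Pecam1, an endothelial adhesion molecule, measured 308, 279 and 618 CPM in controls and 365, 271 and 370 in AKO. Control 3 was far above the other libraries there, and the AKO libraries lay on both sides of controls 1 and 2. Genes of smooth muscle and pericytes had medians of −0.31, 0.002 without control 3, −0.55 without control 2, −0.52 without AKO 3 and 0.03 against control 2 alone, and Acta2 measured 311, 160 and 571 CPM in controls and 190, 214 and 177 in AKO. Ribosomal protein genes had a median of 0.51, with 19 of 30 above all controls (15.2% of all genes were). Rps9 measured 463, 594 and 413 CPM in controls and 662, 682 and 851 in AKO. Control 2 was the nearest control, and the median was 0.19 against it alone and 0.08 with the B cell covariate, so this list moved with the lymphocyte markers. Whether those cells supplied the ribosomal transcripts was not tested.

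The matrix, macrophage and cholesterol lists kept a negative median in each such fit. Collagens had medians of −1.03 without control 2, −0.82 without control 3, −0.86 without the muscle-rich libraries, −0.78 against control 2 alone and −0.69 with the B cell covariate. Lipid-associated macrophage genes had −1.09, −1.05, −0.95, −0.95 and −0.84, and cholesterol genes −0.66, −0.51, −0.70, −0.44 and −0.42. Matrix glycoproteins had −0.38 against control 2 alone and −0.34 with the covariate, beside −0.70 over all libraries, and matrix proteases −0.30 and −0.22, beside −0.71. Lysosomal genes had −0.215 against control 2 alone and −0.178 with the covariate, beside −0.36 over all libraries. Against control 2 alone, 18 of 19 collagens, 17 of 18 lipid-associated macrophage genes and 18 of 25 cholesterol genes lay below it in all AKO libraries, where 28.1% of all genes did. These fits share most of their libraries and are not separate evidence.

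**Figure D5:**
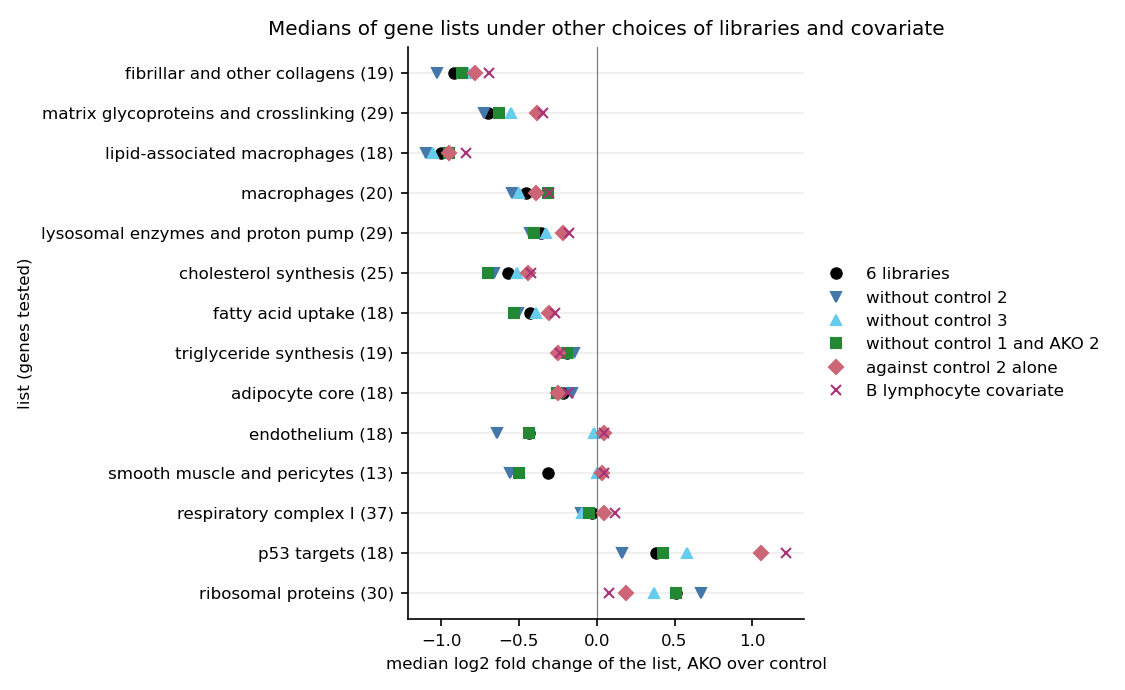
Median log2 fold change of 14 gene lists, AKO over control, in the fit of all 6 libraries (black circles) and in 5 other fits that leave out libraries or add a covariate. Collagen, macrophage and cholesterol lists stay below 0 in every fit, endothelial and smooth muscle lists reach 0 without control 3, and the p53 list is highest with the B lymphocyte covariate (1.22) and against control 2 alone (1.05).

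Transcripts of lymphocytes and of the node's stroma had the largest medians, and they follow the library differences given at the opening. B cell genes had a median of 2.54 over all libraries, 7.28 without control 2, 1.01 against control 2 alone, and T and NK cell genes 1.65, 4.33 and 0.30. Cd79a, of the B cell receptor, measured 1.05, 104 and 0.358 CPM in controls and 160, 127 and 280 in AKO. Cd3e, of the T cell receptor complex, measured 0.468, 17.7 and 1.49 CPM against 19.5, 23.0 and 33.7. Control 2 lay close to the AKO libraries and the other controls near 0. Node stroma genes such as Ccl21a, a chemokine for T cells, had the same order, with 1.64, 107 and 2.33 CPM in controls and 174, 123 and 233 in AKO.

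Plasma cell and lymphatic lists had positive medians against control 2 alone too. Of 13 plasma cell genes, 7 lay above all controls (15.2% of all genes did) and 10 above control 2 (29.7%). Their medians were 1.93 over all libraries and 1.47 against control 2 alone. The antibody joining chain Jchain measured 10.1, 6.81 and 1.07 CPM in controls and 21.8, 35.2 and 42.2 in AKO, and the antibody heavy chain Ighg2c 7.78, 2.29 and 1.97 against 60.8, 23.7 and 30.6. For both, control 1 was the highest control although it held few B cell transcripts. The 8 lymphatic endothelium genes had medians of 1.10 over all libraries, 0.63 against control 2 alone and 0.60 with the B cell covariate. Prox1, the factor that sets lymphatic identity, measured 0.702, 1.06 and 0.538 CPM against 2.51, 3.55 and 3.65 (log2 2.06, SE 0.33), and Mmrn1 1.80 (SE 0.32). The uptake receptor Lyve1 overlapped at −0.07, and podoplanin (Pdpn), also made by fibroblasts, measured −0.81 (SE 0.179).

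Among the muscle genes themselves no gene separated between groups. Acta1, the actin of skeletal muscle, measured 2673, 593 and 194 CPM in controls and 105, 3595 and 112 in AKO. The median of the muscle list was 0.48 over all libraries, 2.04 without control 1, −4.74 without AKO 2 and −3.13 without both, when control 2 held the most. Glycolysis genes, which muscle shares, had a median of −0.12 over all libraries, −0.52 without AKO 2, 0.02 without control 1 and −0.48 without both. Of 20, 5 were lower at unadjusted p under 0.05 over all libraries and 9 without both. Of the 15915 genes, 1914 and 1499 were. Slc16a1, a lactate carrier, measured 69.5, 58.9 and 76.2 CPM in controls and 41.6, 48.5 and 37.6 in AKO, and Eno1, the enolase of most tissues, −0.48 (SE 0.138). The insulin-sensitive glucose carrier Slc2a4 overlapped at 0.30 (SE 0.341), with its highest level, 265 CPM, in AKO 2, and control 3 lowest at 93.2 CPM.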

How the data were processed

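The values are raw whole-number counts per Ensembl gene and library, as deposited by the authors. HTSeq 0.6.0, HISAT2 2.1.0 and Bowtie2 2.2.3 are named for the mm10 build, per the submitters' processing notes. What each tool did, which annotation was counted and whether strand was used are not given, so where genes overlap on opposite strands their reads may be mixed. The labels' protocols name polyadenylated RNA and the reagent TRIzol. Symbols and coordinates came from GENCODE on the same build.

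Counts of the 6 libraries were tested with edgeR 4.0.16 (quasi-likelihood F-test, TMM, filterByExpr, minimum count 10, minimum total 15) in R 4.3.3, with p-values adjusted by Benjamini-Hochberg over 15915 genes and a threshold of 0.05. DESeq2 1.42.0 and limma 3.58.1 (voom) were alternatives. SE and fold changes are edgeR's, on the log2 scale. Single values had exact permutation tests, two-sided. The 55 gene lists were described by counts and medians, with no set test. The tests were checked on simulated counts with known changes and the same dispersion for every gene. Those libraries did not differ in muscle or lymph node content, so the check does not cover such differences.

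Named genes were Mcu, Adipoq, Lep, Pparg, Plin1 and Ucp1, the 12 per direction described in the text (at least 5 CPM, without predicted genes and genes of the muscle and lymph node lists), and, of each list described, its first 3 members and the 5 with the smallest p. The text marks a gene from outside this rule as chosen after its values were seen. Members and lists were chosen with earlier results of these data known. Each library counted as 1 replicate. Within groups, libraries stood apart beyond sampling noise (chi-square per degree of freedom 20.0 to 85.4), which does not show that each came from its own animal. Alternatives were other scalings, filters, tools, covariates, a replicate block and left-out libraries; the adjusted threshold of 0.1 and counts against control 2 by order were chosen after seeing the data. Some genes that the rule names are not reported here.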

Additional observations from a re-analysis of the deposited data

How the results depend on the processing

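At this depth, genes under the count minimum could not be tested. Beside 3 genes higher and 0 lower, edgeR called 98 higher and 179 lower with no filter and 11 and 6 in a robust fit, DESeq2 700 and 979, voom 1 higher, and the muscle covariate 1 higher and 1 lower. No gene was called higher with the replicate block, without the muscle-rich libraries, against control 2 alone or with the B lymphocyte covariate. An adjusted p under 0.1, chosen after seeing the data, gave 163 and 283. Leaving out 1 library gave 1 to 1066 higher and 0 to 583 lower, the highest without control 2. At unadjusted p under 0.05 the counts were 3225 higher and 600 lower when scaled to adipocyte core genes, 1056 lower with library totals, 1033 higher without the muscle-rich libraries, 799 higher and 958 lower against control 2 alone, and 553 and 771 with the B lymphocyte covariate. Leaving out 1 library gave 801 to 2605 higher and 1301 to 2403 lower. The median of all genes moved by 0.249 with adipocyte scaling and 0.141 with library totals, so that the split of genes into higher and lower depends on the scaling. Library totals gave 2397 higher. The cause of these differences was not tested.

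Replicate numbers did not pair the libraries (correlations of deviations −0.47, −0.01 and 0.22), and the fit with the replicate block gave 1099 higher and 1253 lower genes at unadjusted p and lost the call of Zfp949 (adjusted p = 0.263). Mcu was called by DESeq2 (log2 −0.74) and without control 2 (−0.76, edgeR adjusted p = 0.037), and in no other fit. Leaving out each library gave log2 fold changes of −0.85 to −0.69. Zfp949 lost its call in every fit without 1 library but that without control 2, with adjusted p up to 0.262. List medians changed sign with adipocyte scaling for the uniporter (0.11), triglyceride synthesis (0.057), lipogenesis (0.055) and lipolysis (0.076) lists, and, from medians within the spread of replicates, for the adipocyte (0.02), complex I (0.21), complexes II to V (0.18), mitochondrial genome (0.07) and glycolysis (0.10) lists. They also changed sign for the endothelium against control 2 alone (0.049) and with the B lymphocyte covariate (0.045). Both fits also turned positive the medians of smooth muscle and pericytes (0.032 and 0.044), complex I (0.045 and 0.117) and complexes II to V (0.06 and 0.131). The mitochondrial genome (0.063 and 0.233) and glycolysis (0.025 and 0.115) lists turned too. With the covariate, signs changed for lipid droplet proteins (0.082), B lymphocytes (−0.016), T and NK lymphocytes (−0.41) and dendritic cells (−0.18).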
